A study of Rattus norvegicus with 15 samples.

Results

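Genes of interleukin-1 (IL-1) and NF-kappaB inflammation were followed in the islets of Langerhans of 15 Lewis rats: the ligands Il1a and Il1b, the receptor antagonist Il1rn, the receptor Il1r1, the cytokines Il6 and Tnf, the enzymes Nos2 and Ptgs2, and the feedback inhibitors Nfkbia and Tnfaip3. They were chosen by symbol, and all 10 of 10 were found among the 28914 genes of the deposited count table. The rats had either lost 90% of the pancreas (partial pancreatectomy, Px, n = 10) or had a sham operation (Sham, n = 5), and islet polyadenylated RNA was sequenced 10 weeks later. The stated aim was to follow how islets respond to raised blood glucose. The Px rats fell into 3 with an average glucose of 416 to 464 before tissue collection (higher-glucose Px, replicates 13, 15 and 19) and 7 with 104 to 211 (lower-glucose Px, replicates 2, 4, 8, 10, 11, 14 and 16), against 88 to 96 in the Sham rats (replicates 23 to 27). The labels give glucose without a unit.

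All rats carry the same strain label and the same description, a Lewis rat of 4 to 5 weeks, with no statement of when in the study that age applied. All titles carry a mark, Inc_YES, whose meaning the labels do not explain. No transgene or drug is named for any group. The labels number the libraries but do not say in words that each is a separate rat, so p-values measure the spread between these libraries.

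IL-1 alpha and IL-1 beta bind the receptor encoded by Il1r1, and the protein of Il1rn occupies the same receptor without signalling. Receptor signalling frees NF-kappaB from its inhibitor IkappaB-alpha, the product of Nfkbia, and NF-kappaB then switches on genes that include Il1b, Il6, Tnf, Ptgs2, Nos2 and its own inhibitors Nfkbia and Tnfaip3. Beta cells are known to carry high levels of the IL-1 receptor, while macrophages are the textbook source of IL-1 beta.

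The libraries held 22.3 to 33.4 M counts (M, 1000000) in higher-glucose Px, 19.1 to 31.6 M in lower-glucose Px and 12.2 to 18.4 M in Sham. Levels are counts per M (CPM) scaled by TMM (trimmed mean of M-values), and levels of different genes are set side by side only per exon length (RPKM). Endocrine RNA was present: none of 9 endocrine markers was at 0 in either group. Their summed level was 51801 to 87180 CPM in Px and 96736 to 201929 CPM in Sham. This does not show how pure the islets were. Other cells were measured too. The summed level of 14 macrophage and myeloid markers was 781 to 3992 CPM in Px and 33.2 to 76.3 CPM in Sham. The 10 acinar markers summed to 92422 to 501515 CPM in Px and 3577 to 63076 CPM in Sham. In CPM, which leaves exon length aside, every Px acinar sum lay above every Px endocrine sum. Every Sham acinar sum lay below every Sham endocrine sum. Lower-glucose Px replicate 8 stood apart: it had the highest macrophage sum (3992 CPM) and the highest lymphocyte sum (38.3 CPM, against 2.49 CPM in the lowest Px library). It also held the highest level of 7 of the 10 genes described here, so fold changes are given with and without it. In whole-islet RNA, fewer cells of a type and less RNA per cell cannot be told apart.

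Il1b, Il1rn, Ptgs2, Nfkbia and Tnfaip3 were higher in every Px library than in every Sham library, and Il1r1 was lower on average in Px. The rises of Il1b, Il1rn and Ptgs2 were 25.8- to 29.2-fold, while the inhibitors Nfkbia and Tnfaip3 rose 2.36- and 3.08-fold. Of the 10 genes 6 had enough counts to be tested between all Px and Sham libraries, of which 5 were higher and 1 lower in Px with edgeR's quasi-likelihood test and Benjamini-Hochberg adjusted p under 0.05. Over all 15096 genes tested, 34.7% were higher and 30.8% were lower by the same rule. Il1b and Ptgs2, with 21 and 12 counts in Sham, could reach enough counts for the test only through their Px libraries. Their direction was thus set by that filter, and the count of 5 higher is not a free test of direction. The median log2 fold change of all tested genes was 0.02. Complete separation with all Px libraries above all Sham libraries, found for these 5 genes, was found for 20.9% of all tested genes.

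**Figure D1:**
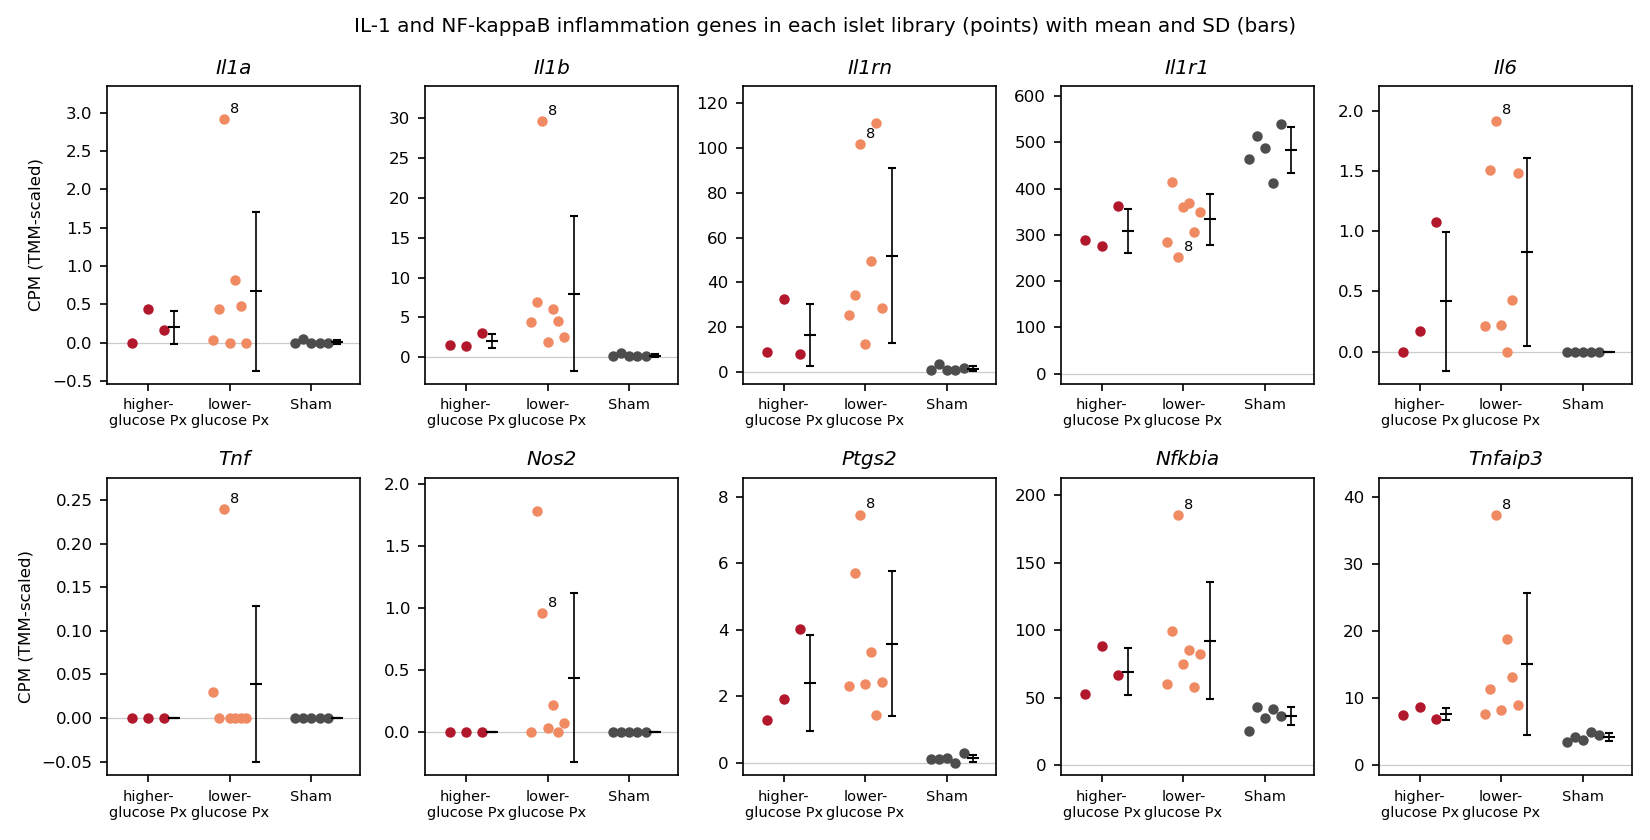
Level of each of the 10 genes in every library, in TMM-scaled CPM on a linear axis that differs between panels. Points are libraries, the bar beside each group is its mean and SD (n = 3 higher-glucose Px, 7 lower-glucose Px, 5 Sham), and 8 marks lower-glucose Px replicate 8. Il1b, Il1rn, Ptgs2, Nfkbia and Tnfaip3 lie higher in all Px points than in all Sham points, and replicate 8 is far above the other points for Il1a, Il1b, Tnf, Nfkbia and Tnfaip3.

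Il1b encodes the secreted cytokine IL-1 beta. It measured 1.56, 1.43 and 3.02 CPM in higher-glucose Px replicates 13, 15 and 19. The lower-glucose Px libraries had 1.86 CPM at the lowest, 4.54 at the median and 29.6 at the highest, and the Sham libraries had 0.105, 0.505, 0.132, 0.134 and 0.173 CPM. Every Px library exceeded every Sham library, and replicate 8 alone contributed 54.0% of the Il1b counts in the 10 Px libraries. The log2 fold change of Px over Sham was 4.87 ± 0.91 (SE; edgeR adjusted p = 0.000188). Without replicate 8 it was 4.07 ± 0.54 (edgeR adjusted p = 6.93e-06), and the Px mean was 3.59 CPM in place of 6.19 CPM. Without Sham replicate 24, the highest of its group, it was 5.47.

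Il1a, which encodes the largely cell-associated IL-1 alpha, lies beside Il1b on the minus strand of chromosome 3, with 40176 bases between them in the file's coordinates (Il1a at 121825412 to 121836086, Il1b at 121876263 to 121882726). For these coordinates, the sources used here name no genome build. Il1a had 0, 0.433 and 0.162 CPM in higher-glucose Px, a range of 0 to 2.91 CPM with a median of 0.436 in lower-glucose Px, and 1 count in a single Sham library, replicate 24. It was at 0 in 3 of 10 Px libraries and in 4 of 5 Sham libraries, so the groups overlapped. Pooled, 135 counts in Px against 1 in Sham gave a ratio of 58.9 with an exact 95% interval of 10.4 to 2343, which covers counting error only. Replicate 8 held 63.0% of those Px counts, and the ratio was 24.95 without it.

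Il1rn encodes the IL-1 receptor antagonist. Its levels were 9.04, 32.4 and 7.97 CPM in higher-glucose Px, 12.5 to 111 CPM with a median of 34.5 in lower-glucose Px, and 0.789, 3.38, 1.01, 0.672 and 1.56 CPM in Sham. All Px libraries again lay above all Sham libraries, and the highest level was in lower-glucose Px replicate 14 and not in replicate 8 (102 CPM). The log2 fold change of Px over Sham was 4.81 ± 0.76 (SE; edgeR adjusted p = 3.76e-05), and 4.55 without replicate 8.

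Il1r1, the signalling receptor, was the only one of the 6 tested genes to be lower in Px. It measured 289, 275 and 363 CPM in higher-glucose Px, 252 to 414 CPM with a median of 349 in lower-glucose Px, and 464, 513, 487, 411 and 541 CPM in Sham. The ranges of Px and Sham touched, because lower-glucose Px replicate 4 (414 CPM) exceeded Sham replicate 26 (411 CPM). The log2 fold change was −0.57 ± 0.12 (SE; edgeR adjusted p = 0.000387), but it was −0.53 without replicate 8 and 0.01 (edgeR adjusted p = 0.965) when the scaling used 8 endocrine granule genes. Over 27 alternative settings its adjusted p ran from 9.98e-34 to 0.965. The lowest came when the scaling used the macrophage markers, where the median log2 fold change of all tested genes was −4.33. Replicate 8 had the lowest Il1r1 level of all Px libraries.

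Per exon length, the receptor stood at the top of the 10 genes in both groups, at 82.5 ± 13.2 RPKM in Px (SD, n = 10) and 122 ± 12.5 RPKM in Sham (SD, n = 5). Nfkbia came next, at 54.5 ± 24.3 RPKM in Px and 23.1 ± 4.39 RPKM in Sham. In Px the order went on with Il1rn (20.3 RPKM), Tnfaip3 (5.25), Il1b (4.43), Ptgs2 (0.738), Il6 (0.672), Il1a (0.414), Nos2 (0.0458) and Tnf (0.0160), and every neighbouring pair in this order overlapped between libraries. In Sham it went on with Tnfaip3 (1.71 RPKM), Il1rn (0.727), Il1b (0.150), Ptgs2 (0.0287) and Il1a (0.00794), with Il6, Tnf and Nos2 at 0. There, Il1r1 lay above Nfkbia, Nfkbia above Tnfaip3 and Il1b above Ptgs2 in every library, while Tnfaip3 with Il1rn and Il1rn with Il1b had overlapping ranges.

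The antagonist exceeded the cytokine in every library. The Il1rn level per exon length was 1.77 to 16.3 times the Il1b level across the Px libraries and 2.19 to 3.86 times across the Sham libraries, both after adding 0.1 RPKM. The mean log2 ratio was 2.30 ± 1.04 in Px (SD, n = 10) and 1.62 ± 0.34 in Sham (SD, n = 5), a difference of 0.68 that did not pass an exact two-sided permutation test (p = 0.183, 3003 splits). With 1 RPKM added in place of 0.1, the difference was 1.41 (exact permutation p = 0.00599), so this comparison rests on how the low Sham values are treated. Between higher- and lower-glucose Px the log2 ratio was 2.18 ± 1.52 (n = 3) and 2.35 ± 0.91 (n = 7), a difference of −0.17 (exact two-sided permutation p = 0.817, where the smallest possible p is 0.00833). Both extremes were Px libraries: replicate 19 had the lowest ratio and replicate 14 the highest.

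**Figure D2:**
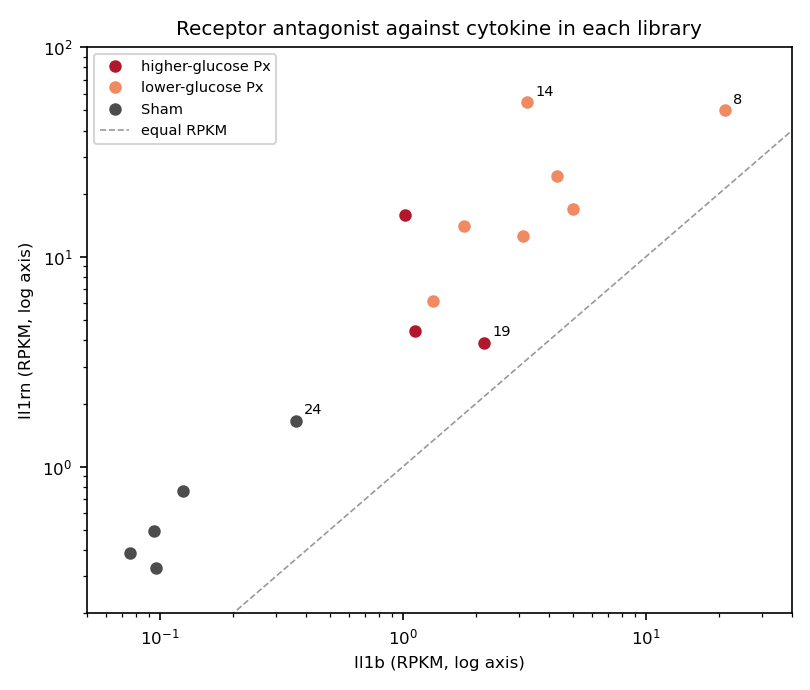
Il1rn level against Il1b level in each library, both in RPKM on log axes, coloured by group. Px libraries lie up and to the right of the Sham libraries, and the log2 ratio of Il1rn to Il1b averages 2.30 in Px and 1.62 in Sham.

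Il6 encodes interleukin-6, a cytokine that NF-kappaB induces in many cells. It had 0, 0.173 and 1.08 CPM in higher-glucose Px and 0 to 1.92 CPM with a median of 0.430 in lower-glucose Px, while all 5 Sham libraries were at 0. Counts were found in 8 of 10 Px libraries. Against a floor of 3 counts over the Sham group, the 163 counts in Px were at least 23.7-fold higher, and at least 17.8-fold higher without replicate 8. Il6 and Il1a did not reach the minimum of libraries needed for the test of all Px against Sham. In a fit without that filter both passed it (edgeR adjusted p = 0.00393 for Il6 and 0.0123 for Il1a).

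Nos2, the inducible nitric oxide synthase, was at 0 in all 3 higher-glucose Px and all 5 Sham libraries. The 79 counts came from 5 lower-glucose Px libraries, with 45 in replicate 4, 28 in replicate 8, 4 in replicate 11 and 1 each in replicates 10 and 16. Px was at least 11.5-fold above the Sham floor, and at least 5.55-fold without replicate 4 and 8.48-fold without replicate 8. In the unfiltered fit its edgeR adjusted p was 0.0490. Tnf, which encodes tumour necrosis factor, had 7 counts in lower-glucose Px replicate 8 (0.240 CPM), 1 in replicate 2 and none in any other library. A count of 0 allows up to 3 counts, which is 0.132 to 0.173 CPM in a Sham library, so lower levels of Tnf were not detectable at this depth. Tnf did not pass even the unfiltered fit (edgeR adjusted p = 0.161).

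Ptgs2 encodes cyclooxygenase-2, the inducible enzyme of prostaglandin synthesis. It measured 1.28, 1.91 and 4.04 CPM in higher-glucose Px, 1.43 to 7.47 CPM with a median of 2.43 in lower-glucose Px, and 0.105, 0.101, 0.132, 0 and 0.289 CPM in Sham. The groups did not overlap. Its log2 fold change of Px over Sham was 4.69 ± 0.61 (SE; edgeR adjusted p = 5.01e-06), the smallest adjusted p of the 6 tested genes, and it was 4.46 without replicate 8. The Sham level rests on 12 counts in all.

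Nfkbia, whose product holds NF-kappaB in the cytoplasm, measured 53.0, 87.8 and 66.6 CPM in higher-glucose Px, 58.1 to 185 CPM with a median of 82.3 in lower-glucose Px, and 25.4, 42.9, 34.8, 41.1 and 36.6 CPM in Sham. Every Px library lay above every Sham library. The log2 fold change was 1.24 ± 0.25 (SE; edgeR adjusted p = 0.000436), 1.03 without replicate 8, and 0.69 (edgeR adjusted p = 0.0874) when libraries were scaled by their totals alone. Over 27 alternatives the adjusted p of Nfkbia ran from 1.77e-19 to 0.585, and neither end belongs to a rise. The lowest came with macrophage-marker scaling (log2 fold change −3.17), the highest with a macrophage covariate (−1.30), both with edgeR. Tnfaip3 encodes A20, a ubiquitin-editing enzyme that dampens signalling from IL-1 and TNF receptors. Its levels were 7.42, 8.67 and 6.89 CPM in higher-glucose Px, 7.65 to 37.3 CPM with a median of 11.4 in lower-glucose Px, and 3.42, 4.24, 3.78, 4.97 and 4.45 CPM in Sham. The groups did not overlap, and replicate 8 held 35.2% of the Px counts. The log2 fold change was 1.62 ± 0.39 (SE; edgeR adjusted p = 0.00145), and 1.28 without replicate 8.

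NF-kappaB binds a short DNA motif, and the promoters were searched for it on both strands. The pattern was 3 G, 2 bases of any kind, 3 T and 2 C in a row. The window ran from 250 bases before to 50 bases after the start (RefSeq, GRCr8, a table that held 9 of the 10 genes). At least 1 match was found in 4 of the 9, those of Tnfaip3, Il1rn, Il6 and Nfkbia, and in 512 of all 33469 promoters of that length (1.53%). The genes were chosen by name and include known NF-kappaB targets, so these shares say nothing about the rises in Px. Il1b and Ptgs2, which rose strongly, are not among the 4. Il6 is among them but was filtered out of the test of all Px against Sham. The 150 bases before each start are shown 5′ to 3′ on the gene's strand to show where the matches, in capitals, lie. Positions are chr1:15543980-15544129 (minus strand) for Tnfaip3, chr3:27520172-27520321 (plus) for Il1rn, chr4:5894576-5894725 (minus) for Il6 and chr6:78597073-78597222 (minus) for Nfkbia.
Tnfaip3: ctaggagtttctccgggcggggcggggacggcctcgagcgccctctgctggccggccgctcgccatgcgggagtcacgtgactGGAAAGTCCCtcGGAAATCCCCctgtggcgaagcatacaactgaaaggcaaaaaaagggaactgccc
Il1rn: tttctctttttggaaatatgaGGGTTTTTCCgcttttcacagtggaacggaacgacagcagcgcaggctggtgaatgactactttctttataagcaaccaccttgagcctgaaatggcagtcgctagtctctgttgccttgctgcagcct
Il6: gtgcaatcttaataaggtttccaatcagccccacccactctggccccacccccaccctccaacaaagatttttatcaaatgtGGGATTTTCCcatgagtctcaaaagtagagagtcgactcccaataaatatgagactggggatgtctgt
Nfkbia: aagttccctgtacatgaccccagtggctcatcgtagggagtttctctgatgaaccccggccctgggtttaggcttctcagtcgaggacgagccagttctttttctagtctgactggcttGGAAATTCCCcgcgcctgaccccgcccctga
Tnfaip3 held a pair of matches, starting 67 and 55 bases before the start on the opposite strand. The single matches started 129 bases before the start in Il1rn and 68 in Il6, both on the gene's strand, and 31 in Nfkbia, on the opposite strand. A match describes letters in this window and shows no bound factor.

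The comparison of glucose groups asked whether the genes differ between rats with higher and lower glucose after the same operation. All groups shared 1 fit, in which 8 of the 10 genes were tested, Il6 and Il1a now included because fewer libraries are required. Against Sham, 6 of the 8 were called in higher-glucose Px, 5 higher and 1 lower, where 58.4% of all 15493 tested genes were called and 32.4% were called higher. In lower-glucose Px all 8 were called, 7 higher and 1 lower, where 64.0% of all genes were called and 33.9% were called higher. Il6, Il1a, Ptgs2 and Il1b, with 0, 1, 12 and 21 counts in Sham, could pass the count filter only through their Px libraries. Their direction was thus set by the filter. All of them are among the 7 higher, and Il6, Ptgs2 and Il1b are among the 5 higher. Neither count is thus a free test of direction. These comparisons share the Sham libraries, so their values are given side by side.

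For Il1b the log2 fold change over Sham was 3.23 ± 0.92 in higher-glucose Px and 5.23 ± 0.81 in lower-glucose Px, for Il1rn it was 3.49 ± 0.72 and 5.14 ± 0.68, and for Ptgs2 it was 4.26 ± 0.68 and 4.84 ± 0.61 (SE; all passed with edgeR). Il1r1 was lower in both, at −0.65 ± 0.16 in higher-glucose Px and −0.54 ± 0.12 in lower-glucose Px. Il6 passed in both, while Il1a passed in lower-glucose Px (edgeR adjusted p = 0.00816) and missed in higher-glucose Px (edgeR adjusted p = 0.135). Nfkbia passed in both, at 0.94 ± 0.30 in higher-glucose Px and 1.35 ± 0.26 in lower-glucose Px. Tnfaip3 missed at 0.88 ± 0.42 in higher-glucose Px (edgeR adjusted p = 0.0858) and passed at 1.85 ± 0.36 in lower-glucose Px. Without replicate 8 the lower-glucose Px values were 4.36 for Il1b, 4.89 for Il1rn, 4.55 for Ptgs2, −0.48 for Il1r1, 1.08 for Nfkbia and 1.44 for Tnfaip3, all still called.

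Single libraries decided 3 of the calls of higher-glucose Px against Sham. Tnfaip3 passed without lower-glucose Px replicate 8, which enters only through the shared spread (log2 fold change 0.88, edgeR adjusted p = 0.00740, from 0.00740 to 0.203 over the libraries left out in turn). Nfkbia missed without higher-glucose Px replicate 15 (0.72, edgeR adjusted p = 0.0907, from 0.000834 to 0.0907). Il6 missed without higher-glucose Px replicate 19 (edgeR adjusted p = 0.205, from 0.0176 to 0.205). It also missed with limma voom, thinned counts, macrophage-marker scaling and either marker covariate (acinar or macrophage), while Il1b missed with limma voom, and Il1rn, Il1r1 and Nfkbia with the acinar covariate. In lower-glucose Px against Sham, Il1a missed with limma voom and Il1r1 with the acinar covariate. With macrophage-marker scaling, Il6 in lower-glucose Px was the only one of these 8 genes still called higher than in Sham in either glucose group. Its direction was set by the filter, as stated above. With the macrophage covariate none of the 8 was called higher. Without higher-glucose Px replicate 15 the Il1rn value was 2.53, without replicate 19 that of Ptgs2 was 3.68, and without Sham replicate 24 that of Il1b was 3.83 in higher-glucose Px and 5.83 in lower-glucose Px, all still called. With libraries scaled by their totals alone, the direction of Nfkbia (−0.04) and Tnfaip3 (−0.12) in higher-glucose Px turned.

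Tested directly, none of the 8 genes passed between higher- and lower-glucose Px with edgeR (0 called, and Il1b, Il1rn and Tnfaip3 with an unadjusted p under 0.05), and none was called with DESeq2 or limma voom either. Over all genes 4.76% were called. With TMM all 8 estimates were lower in higher-glucose Px, at −2.01 ± 0.75 for Il1b (edgeR adjusted p = 0.126), −1.65 ± 0.66 for Il1rn (0.151), −0.98 ± 0.41 for Tnfaip3 (0.173), −0.58 ± 0.51 for Ptgs2, −0.41 ± 0.30 for Nfkbia and −0.11 ± 0.15 for Il1r1 (log2 fold change and SE), and Il1r1 was at 0.11 when scaled by macrophage markers. Without replicate 8 the estimates were closer to 0 for Il1b (−1.13 ± 0.43), Il1rn (−1.39 ± 0.63), Tnfaip3 (−0.56 ± 0.25), Ptgs2 (−0.29 ± 0.46) and Nfkbia (−0.15 ± 0.20), while Il1r1 was at −0.17 ± 0.14. Of the marker sums, only that of fibroblasts and stellate cells had no overlap, at 771 to 1696 CPM in higher-glucose Px and 2506 to 6516 CPM in lower-glucose Px. The macrophage sums overlapped (841 to 1173 and 781 to 3992 CPM), as did the acinar sums (241400 to 501515 and 92422 to 402974 CPM). The share of all genes without overlap between the glucose groups is not given here. The part of any marker sum in these estimates was not tested.

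Within the 7 lower-glucose Px libraries, no slope on glucose was called. Of the 9 genes tested for a slope on log2 glucose, edgeR called 0 and none had an unadjusted p under 0.05, DESeq2 called 0, and edgeR called 0.0% of all 15657 genes. The slope per doubling of glucose was 1.66 ± 1.73 for Il1b, −0.66 ± 0.99 for Il1rn and 0.83 ± 0.65 for Nfkbia (log2 units and SE). Without replicate 8 it was 0.60 ± 0.70, −0.91 ± 0.82 and 0.51 ± 0.29 in the same order.

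Markers of other cells moved with the rise of these genes. All 14 macrophage and myeloid markers in the table were higher in Px than in Sham, with a median log2 fold change of 3.89, and none was at 0 in either group. For every 1000 macrophage-marker counts, Il1b had 3.96 ± 2.41 counts in Px (SD, n = 10) and 3.67 ± 2.37 in Sham (SD, n = 5). Il1rn had 28.8 ± 15.4 in Px and 26.5 ± 16.3 in Sham, and Ptgs2 had 2.82 ± 1.72 in Px and 2.54 ± 2.13 in Sham. For these 3 genes the means differed by less than the SD between libraries. By contrast, Nfkbia had 72.9 ± 24.6 in Px and 657 ± 91.6 in Sham, Tnfaip3 had 9.92 ± 3.72 in Px and 77.3 ± 17.5 in Sham, and Il1r1 had 316 ± 134 in Px and 9265 ± 3247 in Sham.

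When libraries were scaled by these markers, the log2 fold change of Px over Sham was 0.11 for Il1b (edgeR adjusted p = 0.841), 0.12 for Il1rn (0.762) and 0.29 for Ptgs2 (0.650). These were the highest adjusted p-values among the 27 alternatives of each gene, where the lowest were 6.99e-10, 3.09e-13 and 4.49e-15 in the same order, all with DESeq2. On that scale Nfkbia was −3.17, Tnfaip3 −2.96 and Il1r1 −4.88, where the median of all genes was −4.33. The marker medians on it were −0.51 for macrophage and myeloid, −0.10 for fibroblast and stellate and −0.52 for lymphocyte genes. Those of the other marker lists ran from −4.81 to −0.95. With TMM the same 3 medians were 3.89, 4.15 and 4.28. Small changes on the macrophage scale were thus not particular to genes of macrophages. The neutrophil sum of 7 markers was 2.38 to 15.2 CPM in Px and 0.631 to 1.10 CPM in Sham, and the lymphocyte sum of 6 markers was 2.49 to 38.3 CPM in Px and 0.173 to 0.789 CPM in Sham. All 7 fibroblast and stellate markers were higher in Px, with sums of 771 to 6516 CPM in Px and 114 to 389 CPM in Sham and no overlap. Of the other markers, 4 of 5 endothelial and 4 of 6 duct genes were called higher in Px. What part the myeloid cells, the fibroblasts, the acinar genes or the lower endocrine level have in the rises was not tested.

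**Figure D3:**
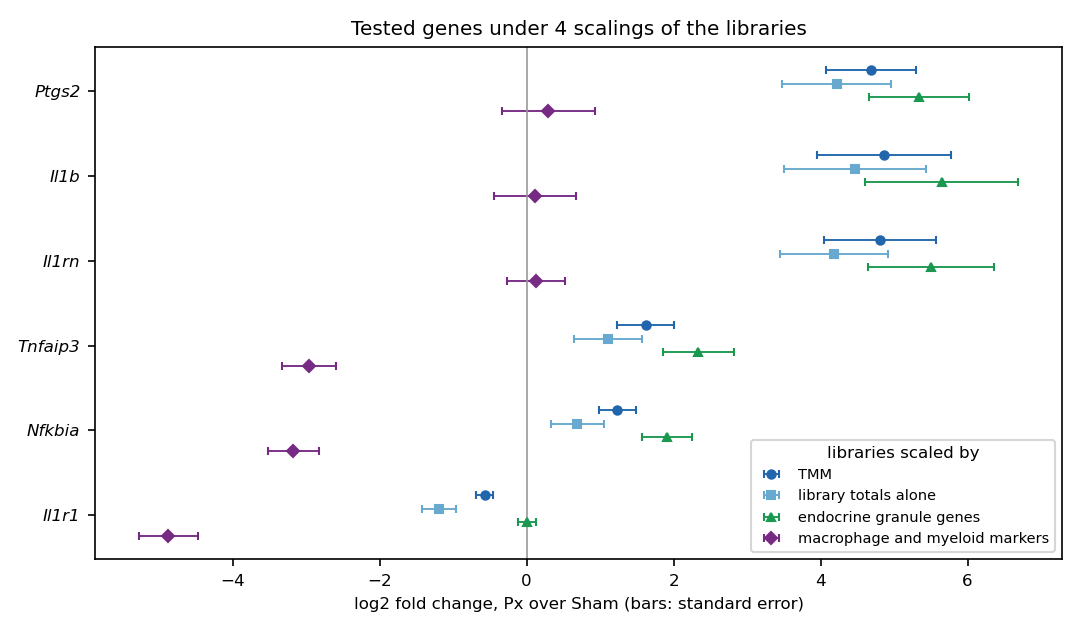
Log2 fold change of Px over Sham for the 6 tested genes, with standard errors, under 4 ways of scaling the libraries. Il1b, Il1rn and Ptgs2 lie above 4 under TMM, library totals and endocrine granule genes and near 0 under macrophage markers, Nfkbia and Tnfaip3 turn direction under macrophage markers, and Il1r1 is at 0.01 under endocrine granule genes.

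The choice of scaling shifted all genes and not these alone. The median log2 fold change of all tested genes was −0.62 with library totals alone and 0.62 with endocrine granule genes, and the genes called higher and lower numbered 5234 and 4643 with TMM, 2667 and 7951 with library totals and 9287 and 707 with endocrine granule genes. With the mean log2 CPM of the acinar markers as a covariate, the log2 fold change of Px over Sham was 8.39 for Il1b, 6.62 for Ptgs2 and 2.51 for Tnfaip3, all called, while Il1r1 at −0.55 was no longer called (edgeR adjusted p = 0.0664).

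Within the 7 lower-glucose Px libraries, the log2 level of Il1rn had a Pearson r of 0.84 with the log2 macrophage sum (exact permutation p = 0.0103, 0.0619 after adjustment over 6 genes) and a Spearman rho of 0.64 (exact permutation p = 0.139, adjusted 0.417). For Tnfaip3 r was 0.81 and rho 0.43 (exact permutation p = 0.0333 and 0.354, adjusted 0.0667 and 0.530), and for Il1b r was 0.79 and rho 0.43 (exact permutation p = 0.0540 and 0.354, adjusted 0.0810 and 0.530). Il1r1 ran the other way, with r of −0.78 and rho of −0.86 (exact permutation p = 0.0284 and 0.0238, adjusted 0.0667 and 0.143). None of the 6 relations passed the adjustment. Without the libraries farthest from the median, replicates 8 and 14, r was 0.72 for Il1rn, 0.42 for Il1b, 0.25 for Tnfaip3 and −0.44 for Il1r1, so the relations of Il1b and Tnfaip3 rested on those libraries. Nfkbia (r of 0.58, rho of −0.04) and Ptgs2 (r of 0.33, rho of −0.04) showed no relation that passed (exact permutation p of 0.176 and 0.964 for Nfkbia, 0.484 and 0.964 for Ptgs2).

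**Figure D4:**
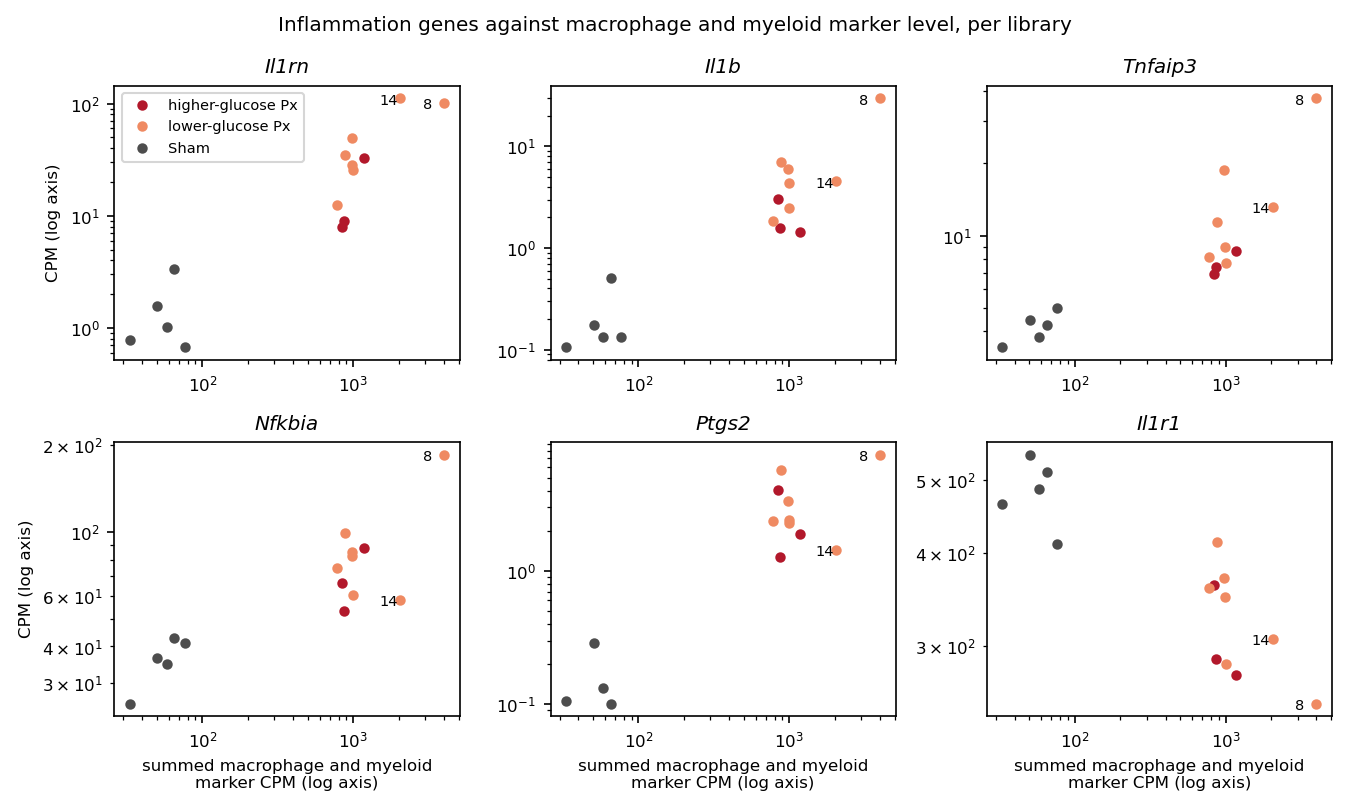
Level of the 6 tested genes against the summed macrophage and myeloid marker level in each library, both in CPM on log axes, coloured by group. All Px libraries lie between 781 and 3992 CPM on the marker axis and all Sham libraries between 33.2 and 76.3 CPM; the value of 0 for Ptgs2 in Sham replicate 26 is not drawn on the log axis.

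The genes did not all follow each other from rat to rat. Over the 10 Px libraries, after subtracting the mean of each glucose group, Il1b correlated with Tnfaip3 (r = 0.84), Ptgs2 (0.75) and Nfkbia (0.71), and Nfkbia with Ptgs2 (0.79). Il1rn correlated with Tnfaip3 (0.71) but hardly with Ptgs2 (0.08), and with Il1b r was 0.52. Several of these rested on replicate 8. Over the 9 Px libraries without it, Il1b had r of 0.48 with Tnfaip3, 0.59 with Ptgs2 and 0.11 with Nfkbia, and Nfkbia had 0.66 with Ptgs2. Il1rn then had r of 0.67 with Tnfaip3, −0.27 with Ptgs2 and 0.29 with Il1b. These values describe libraries that share depth and cell makeup and carry no test.

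Among 9727 genes with a mean of at least 5 CPM, those most like Il1b by the same measure were Pde4b (r = 0.97), a cyclic AMP phosphodiesterase, Arrb2 (0.97), Gbp2 (0.96), an interferon-induced GTPase, Fcgr1a (0.96), a high-affinity Fc receptor of myeloid cells, and Ifi47 (0.96). Most like Il1rn were Hvcn1 (0.98), a proton channel of phagocytes, Itgad (0.97), an integrin subunit of leukocytes, Cybb (0.97), the catalytic subunit of the phagocyte NADPH oxidase, Srp19 (0.96) and Hk3 (0.95), a hexokinase. Cybb and Fcgr1a are also among the 14 macrophage markers. Most like Nfkbia were Lrwd1 (0.92), Plekha2 (0.91), Bcl2l11 (0.90), Commd8 (0.90) and Tmpo (0.90). Without replicate 8 the r of the first gene of each set was 0.94 for Pde4b, 0.98 for Hvcn1 and 0.78 for Lrwd1.

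Other genes of the pathway were read from lists in the same fit of Px against Sham. Counts by list are given with TMM and then, where they change, with the libraries scaled by their totals alone and by endocrine granule genes. With TMM 34.7% of all tested genes were higher and 30.8% lower, and the list counts are to be read against these shares. Some listed genes were so low in Sham that they could pass the count filter only through Px libraries. Among them were Il1r2, Il1rl1, Il18r1 and Il18rap (at most 0.462 CPM in Sham) and Tnip3, Cxcl1, Sele and Ptger4 (at most 0.269 CPM). Their direction was set by the filter, so the counts of their lists are not free tests of direction. Scaled by macrophage markers, the median of every list was below 0, between −4.32 and −1.43. In the IL-1 family and inflammasome list, all 14 of the 14 tested genes were higher in Px, with a median log2 fold change of 2.77 against 0.02 over all genes (10 higher and 4 not called with library totals, 14 higher with granule genes). Il33, an alarmin of the IL-1 family, had 107 ± 65.2 CPM in Px (SD, n = 10) and 3.47 ± 2.20 CPM in Sham (SD, n = 5), a log2 fold change of 4.95 ± 0.51 (SE; edgeR adjusted p = 5.33e-07). Casp1, the protease that matures IL-1 beta, had 11.2 ± 4.78 CPM in Px and 1.74 ± 0.28 CPM in Sham. Chosen after their values were seen, the decoy receptor Il1r2 and the co-receptor Il1rap also rose, by log2 fold changes of 3.71 ± 0.45 and 0.58 ± 0.15, where the signalling receptor Il1r1 fell. With library totals Il1rap was at −0.04.

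Of 9 receptors and signalling genes for TNF and IL-6, 6 were higher, 2 lower and 1 not called in Px (median 0.35). With library totals 3 were higher and 3 lower (median −0.25), and with granule genes 7 were higher and none lower (median 0.98). Tnfrsf1b, the type 2 TNF receptor, had 24.5 ± 10.1 CPM in Px and 3.20 ± 0.43 CPM in Sham, and Socs3, a feedback inhibitor of IL-6 signalling, had 9.15 ± 4.16 CPM in Px and 0.762 ± 0.305 CPM in Sham. Both chains of the IL-6 receptor fell, with log2 fold changes of −0.66 ± 0.09 for Il6st and −0.48 ± 0.11 for Il6r (SE; edgeR adjusted p = 1.15e-05 and 0.00110), and neither was called with granule genes (−0.06 and 0.12). Of 20 adaptors and kinases, 8 were higher, 6 lower and 6 not called (median 0.05), shares close to those of all genes. With library totals 3 were higher and 9 lower (median −0.56), and with granule genes 15 were higher and none lower (median 0.65). Tlr2, a receptor for bacterial lipopeptides, rose by 3.79 ± 0.36 and Irak3, an inhibitory kinase-like protein mainly of myeloid cells, by 3.05 ± 0.37, while Chuk, an IkappaB kinase, fell by 0.53 and Traf3 by 0.69 on the log2 scale. With granule genes Chuk was at 0.06 and Traf3 at −0.08.

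Of 5 NF-kappaB subunits 4 were higher in Px (median 0.96; 2 higher and 1 lower with library totals, 5 higher with granule genes), among them Relb (1.52 ± 0.23) and Nfkb2 (1.26 ± 0.21). The one not called was Rela, chosen after its value was seen, at 0.05 ± 0.09 (SE; edgeR adjusted p = 0.653), lower with library totals (−0.58) and higher with granule genes (0.67). Of 12 genes listed as NF-kappaB inhibitors 8 were higher, 2 lower and 2 not called (median 1.25; 5 higher and 2 lower with library totals, 10 higher and none lower with granule genes). The list includes nuclear IkappaB proteins and factors of message decay, so the count is not of NF-kappaB inhibitors alone. Bcl3, a nuclear IkappaB protein, had 5.46 ± 2.29 CPM in Px and 0.794 ± 0.228 CPM in Sham, and Zfp36, which speeds decay of cytokine messages, had 85.4 ± 24.3 CPM in Px and 28.1 ± 4.78 CPM in Sham. The deubiquitinases Otud7b and Cyld fell by 0.23 and 0.36 on the log2 scale, and were at 0.36 and 0.26 with granule genes.

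Of 13 other NF-kappaB target genes tested, 12 were higher and 1 not called (median 2.80; 11 higher with library totals, 13 with granule genes). Csf1, the macrophage growth factor, had 29.6 ± 12.6 CPM in Px and 4.28 ± 0.54 CPM in Sham, and Plau, urokinase, had 30.9 ± 12.6 CPM in Px and 4.45 ± 1.31 CPM in Sham. Of 14 prostaglandin and nitric oxide genes tested, 8 were higher, 3 lower and 3 not called (median 1.30; 7 higher and 6 lower with library totals, 11 higher and none lower with granule genes). Pla2g4a, which frees the fatty acid that Ptgs2 uses, had 8.61 ± 2.61 CPM in Px and 0.553 ± 0.269 CPM in Sham, and the prostaglandin E2 receptor Ptger4 had 2.10 ± 0.85 CPM in Px and 0.147 ± 0.0755 CPM in Sham. Ptges2 and Ptgds, both prostaglandin synthases, fell by 0.41 and 0.66 on the log2 scale, and were at 0.19 and −0.04 with granule genes. Leaving out replicate 8 changed none of these list counts except that of the other target genes, where 12 were tested and 11 were higher. The part of the macrophage sum in the list counts was not tested.

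**Figure D5:**
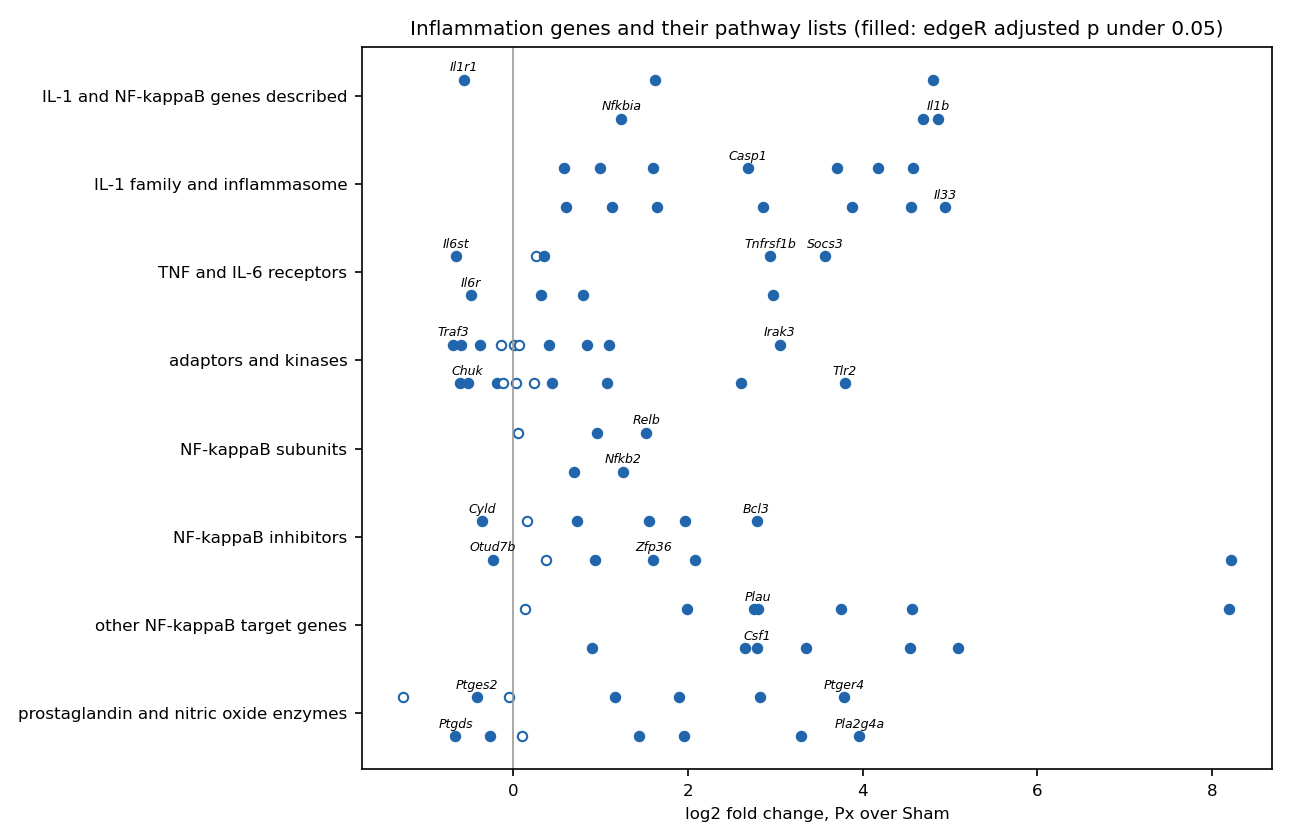
Log2 fold change of Px over Sham for each tested gene of the lists (points, in 2 lines per list for space), filled where the edgeR adjusted p was under 0.05, with the genes picked by the naming rule labelled. The IL-1 family and inflammasome genes all lie above 0, while adaptors and kinases spread around 0 with a median of 0.05. Both medians move with the scaling, to 2.21 and −0.56 with library totals.

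The authors' deposited table lists 6 of the 10 genes. The authors' deposited table gives log2 fold changes of 4.36 for Il1b, 4.57 for Il1rn, 4.73 for Ptgs2, 1.17 for Nfkbia, 1.43 for Tnfaip3 and −0.57 for Il1r1, with adjusted p-values between 0.000330 and 0.00946.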

How the data were processed

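Islet RNA of 10 Px and 5 Sham rats was sequenced. Per the file headers, the deposited count table gives whole reads for each of 28914 genes, with positions and exon length. FastQC, Subread, featureCounts and limma are named, with no version, by the submitters' processing notes. The sources used here give neither build, annotation nor strand setting. The authors' deposited comparison table gives a log2 fold change, its linear ratio and an adjusted p-value for each gene, and its direction matched Px over Sham in the counts.

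The 10 genes, the lists and the tests were chosen with earlier results of these data known. The labels set the groups, with a boundary at a glucose of 300. Genes were kept by filterByExpr (minimum count 10, minimum total 15), libraries scaled by TMM, and two-sided quasi-likelihood tests run in edgeR 4.0.16 (R 4.3.3), adjusted by Benjamini-Hochberg over all tested genes at 0.05. One model held Px and Sham, another the 3 glucose groups, and the slope model the 7 lower-glucose libraries. CPM used effective library sizes, and RPKM the deposited exon length. The models were tested on simulated counts. From each pathway list, up to 2 rising and 2 falling genes by smallest p, with a mean of at least 1 CPM, were named. The 8 granule genes for scaling were Pam, Pcsk2, Cpe, Chga, Chgb and the secretogranins Scg2, Scg3 and Scg5. Alternatives were RLE factors, library totals, granule and macrophage-marker scaling, no filter, a stricter filter (1 CPM in 5 libraries), DESeq2 1.42.0, voom of limma 3.58.1, macrophage and acinar covariates, thinning to 12.2 M counts (M, 1000000), a minimum absolute log2 fold change of 1, and leaving out each library. Ptgis, Itgam, Cd79a and Pecam1 were listed and not analysed here.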

Additional observations from a re-analysis of the deposited data

Results flagged for a closer look

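Lower-glucose Px and Sham were screened for outlying libraries, in 17 sets of levels of the 10 genes that had a spread and in 2 sets of the log2 ratio of Il1rn to Il1b, and in 7 of these 19 sets, all of levels, 1 library lay farther from the rest than Dixon's 95% critical value. Dixon's value gives a rate of 1 set in 20 only for independent sets with a normal spread. These levels are sparse, skewed and linked between genes, so the count of 7 is not set against chance. Of the 7, 5 were the same library, lower-glucose Px replicate 8, which stood above the other 6 lower-glucose Px libraries with 2.91 CPM for Il1a, 29.6 CPM for Il1b, 0.240 CPM for Tnf, 185 CPM for Nfkbia and 37.3 CPM for Tnfaip3. This library also had the highest macrophage, lymphocyte and neutrophil marker sums, at 3992, 38.3 and 15.2 CPM, and whether these levels share a cause was not tested. Most of its neutrophil sum came from Cxcr2 (7.98 CPM) and Csf3r (5.14 CPM). S100a8 and Camp were also highest there, at 9 counts each, but Mpo was at 0, and S100a9 and Mmp8 were higher in other Px libraries. The other 2 flagged sets were those of Sham replicate 24, which stood above the other 4 Sham libraries with 0.505 CPM for Il1b and 0.0505 CPM for Il1a. The Il1a value is a single count among libraries without any, so its flag was fixed by that count. Sham replicate 24 also had the highest Il1rn level of the Sham libraries, 3.38 CPM.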

How the results depend on the processing

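The count of 5 genes higher in Px than in Sham was 8 with no filter on low counts, 7 of 8 tested with granule genes and 4 with library totals. It was 0 when libraries were scaled by macrophage markers or a macrophage score was a covariate. That score separates Px from Sham, so score and group cannot be told apart in it: edgeR called 0 of all genes for Px against Sham. The 1 gene lower (Il1r1) became 0 with granule genes, the macrophage covariate, the acinar covariate or a minimum absolute log2 fold change of 1, and 3 with macrophage-marker scaling, for Px and for both glucose groups against Sham. For higher-glucose Px against Sham, 5 genes higher became 0 with macrophage-marker scaling, 0 with the macrophage covariate, 2 with the acinar covariate and 3 with limma voom. Nfkbia also dropped out with library totals and with the minimum fold change, and Il6 with thinned counts, while granule genes added Tnfaip3. For lower-glucose Px, 7 became 1 with macrophage-marker scaling and 0 with the macrophage covariate. The cause of these changes was not tested, beyond the added genes that no filter brings. Leaving out each library gave 5 to 6, 4 to 6 and 6 to 8 genes higher for Px, higher-glucose Px and lower-glucose Px against Sham, and always 1 lower. It gave 0 called between the glucose groups and for the slope, as did all other alternatives.

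With the macrophage covariate the log2 fold change of Px over Sham turned to −2.51 for Il1b, −2.05 for Il1rn, −1.30 for Nfkbia, −2.34 for Tnfaip3 and 0.49 for Il1r1. In higher-glucose Px it turned to −4.11 for Il1a, −2.49 for Il1b, −1.997 for Il1rn, −1.28 for Nfkbia, −2.35 for Tnfaip3 and 0.53 for Il1r1, and in lower-glucose Px to −3.78, −1.38, −0.998, −1.10, −1.75 and 0.73 in the same order. With macrophage-marker scaling Nfkbia and Tnfaip3 turned to −3.17 and −2.96 in Px, −3.19 and −3.26 in higher-glucose Px and −3.16 and −2.85 in lower-glucose Px, Il1b and Il1rn to −0.74 and −0.74 in higher-glucose Px, and Il1r1 to 0.11 between the glucose groups. Library totals turned Nfkbia (−0.039) and Tnfaip3 (−0.12) in higher-glucose Px, and granule genes turned Il1r1 in Px (0.0069) and lower-glucose Px (0.10). The slope on glucose, never called, turned for Il1b with the acinar covariate (−0.023), for Il1r1 (−0.034) and Il1rn (0.62) with the macrophage covariate, for Il1rn (0.058) and Il6 (0.20) with library totals, for Il1rn without replicate 14 (from −1.34 to 1.18 over the libraries left out) and for Il6 without replicate 11 (from −3.39 to 1.54). The difference in the log2 ratio of Il1rn to Il1b between Px and Sham was 1.41 with 1 RPKM added, and 0.49 to 0.85 with each library left out. Between the glucose groups it ran from −0.99 to 0.51, turning to 0.11 without lower-glucose Px replicate 14 and to 0.51 without higher-glucose Px replicate 19. Over all 10 Px libraries Il1rn (r = 0.79) and Tnfaip3 (r = 0.82) passed against the macrophage sum by Pearson r (permutation p adjusted 0.00834 and 0.0454). By Spearman rho (0.76 and 0.62) neither passed (permutation p adjusted 0.0900 and 0.121). Without replicates 8 and 14 r was 0.66 for Il1rn and 0.22 for Tnfaip3. Of 944 values of single genes under alternatives, 871 kept direction and call, 37 turned direction, 32 were no longer called and 4 became called. These include the glucose-group and slope values, which were never called, and the fits with 1 library left out. In the comparisons with Sham, the macrophage covariate turned 17 values and 5 were no longer called. Macrophage-marker scaling turned 8, 9 were no longer called and 5 stayed the same.

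No paired analysis was possible because the Px and Sham groups share no replicate numbers. Depth limits Tnf, Nos2, Il1a and Il6, whose counts in Sham were 0 or 1.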
